A study of Caenorhabditis elegans with 12 samples.

Results

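On microRNA arrays of larval stage 4 worms, 64 of the 114 Caenorhabditis elegans microRNA probes gave a signal rarely or not at all. They were chosen by 1 rule: an intensity above 0 in either channel, in any spot, on at most 3 of the 11 distinct arrays. Of these 64 probes, 40 stayed dark on all arrays and 24 gave a signal on 1 to 3. The other 50 probes gave a signal on 4 or more arrays. The 64 include all 8 probes of the miR-35 family and the single probe for lsy-6.

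MicroRNAs are short RNAs that pair with messenger RNAs, mainly through bases 2 to 8 of the microRNA (the seed), and lower their translation or stability. MicroRNAs with the same or a closely similar seed form a family and can share targets. The families here follow the literature and were not computed from sequence. In C. elegans many are made at particular stages. The miR-35 family is abundant in oocytes and embryos and is needed, as a group, for embryonic development. lin-4 and the let-7 family time larval development and are abundant in late larvae. lsy-6 is made in very few cells and sets the left-right difference between the ASE taste neurons by repressing the transcription factor gene cog-1.

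The study set 3 worm models of Parkinson's disease against the wild-type strain N2 on 2-colour NCode arrays, with N2 and the strain hybridised to the same array. The strains were a human alpha-synuclein A53T transgenic, for which the labels name no promoter, CB1111 (cat-1; e1111), a loss-of-function mutant of a catecholamine transporter, and VC1024 (pdr-1; gk448), a loss-of-function mutant of the worm parkin gene. All worms, N2 included, were synchronized, grown at 20 °C on OP50 bacteria and taken at larval stage 4, and RNA below 200 nt was extracted from whole populations. The labels give 4 worm populations per strain and 4 N2 preparations, but the files of cat-1 replicates 3 and 4 were identical and were counted as 1 array (replicate 3), leaving 3 arrays for cat-1 beside 4 each for the other strains.

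Per the labels, N2 was always labelled with Alexa Fluor 3 and the strain with Alexa Fluor 5, with no dye swap, so a probe's dye bias and a difference between strain and N2 cannot be told apart. Which channel of the files holds the strain follows the labels' channel order and is likely rather than stated. Known microRNA markers are set beside the stage label as a description. Among late larval microRNAs, let-7 gave a signal on 10 arrays, miR-48 on 11, miR-84 on 10, miR-241 on 7 and lin-4 on 7. The muscle microRNA miR-1 gave one on 11. Of the neuronal ones, miR-124 gave one on 5 and lsy-6, itself a member, on 0. The embryonic set, miR-35 to miR-42, gave one on at most 2. All 8 of its probes are members, chosen for few signals, so their low count cannot bear on the stage label.

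The arrays differed widely in how much they registered. Between 14 and 55 of the 114 probes gave a signal per array, with the fewest, 14 and 15, on alpha-synuclein replicate 4 and on pdr-1 replicate 1. The lowest lit C. elegans spot of an array ranged from 5.30 to 472 between arrays in the N2 channel and from 73.1 to 1019 in the strain channel, in intensity units divided by 1000. A 0 on 1 array and a 0 on another thus do not bound a level equally, and a 0 here means no signal above the scanner file's own processing, not absence of the microRNA. In RNA of whole worms, fewer cells that make a microRNA and less of it per cell cannot be told apart. All intensities below are arbitrary units divided by 1000, per spot, with 3 spots per probe, and intensities of different microRNA probes are not compared.

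**Figure D1:**
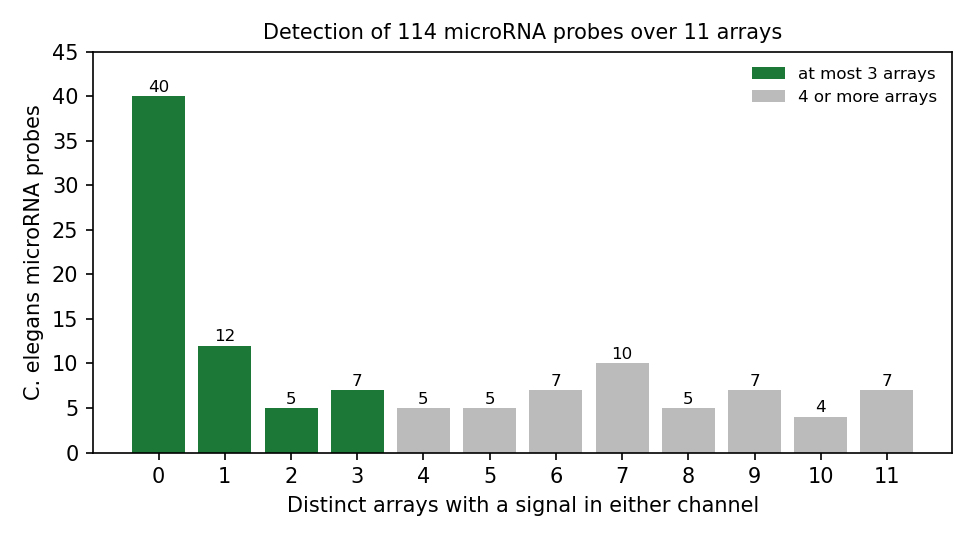
Bars give the number of C. elegans microRNA probes (vertical axis) by the number of distinct arrays on which a probe gave a signal in either channel (horizontal axis). The green bars are the 64 probes on at most 3 arrays, 40 of them at 0, and the grey bars are the other 50.

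The number of arrays with a signal chose the members, so it is given as a description. It was 0 for 40 probes, 1 for 12, 2 for 5 and 3 for 7. The probes just inside the limit, on 3 arrays, were miR-49, miR-59, miR-67, miR-85, miR-231, miR-254 and miR-266. Those just outside it, on 4 arrays, were miR-90, miR-235, miR-236, miR-238 and miR-244. As the plot of probes by number of arrays shows, no gap separates the sides of this limit, whereas the 40 silent probes form a class larger than any other count.

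Among developmental and neuronal regulators, lsy-6 was silent in both channels on all 11 arrays. miR-273, which has been proposed to act in the same left-right decision of the ASE neurons, was silent too. miR-237, the relative of lin-4 with the same seed, was silent throughout, while lin-4 gave a signal on 7 arrays. miR-61, which LIN-12/Notch signalling induces in vulval precursor cells, and miR-62, which is spliced out of an intron as a mirtron, gave no signal. Neither did miR-240, whose gene lies within 1000 bases of mir-786, a microRNA gene known for the rhythm of defecation.

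Read by family, the 64 probes were spread unevenly. In the miR-35 family 8 of 8 probes were members, and 3 of them, miR-36, miR-38 and miR-41, were silent. The pair miR-232 and miR-357 were both members, on 2 arrays and 1 array. In 9 further families a member stood beside a relative that gave a signal more often. miR-250 (silent) and miR-43 (1 array) stood beside miR-2 (9 arrays). miR-61 (silent) and miR-247 (1 array) stood beside the shared miR-44 and miR-45 probe (9 arrays). miR-239b (silent) stood beside miR-239a (6 arrays) and miR-238 (4 arrays), a group studied for stress resistance and lifespan. miR-62 (silent) stood beside miR-50 (5 arrays) and miR-90 (4 arrays), and miR-49 (3 arrays) beside miR-83 (7 arrays). miR-266 (3 arrays) stood beside miR-72 (7 arrays), miR-73 and miR-74 (6 arrays each). miR-251 (silent) stood beside miR-252 (9 arrays), miR-75 (2 arrays) beside miR-79 (7 arrays), and miR-237 beside lin-4 as above. No member was placed in the let-7, miR-46, miR-51, miR-58, miR-63 or miR-87 families, apart from miR-56*, the opposite arm of the miR-51 family's miR-56.

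The remaining silent probes were placed in none of these families. They were miR-76, miR-227, miR-242, miR-245, miR-248, miR-249, miR-253, miR-256 to miR-262, miR-264, miR-267, miR-269 to miR-272, miR-353 to miR-356, miR-358 to miR-360 and miR-392. Most carry high numbers. All 28 probes numbered from 253 to 392 were members, and 23 of them were silent. Among the lower numbers, 35 of 83 probes were members and 16 were silent. The number follows the order in which microRNAs were named. The boundary was set, after the values were seen, just above the highest-numbered probe that is not a member, so the first count is true by construction.

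Position on the genome gave a similar picture only in part. The genes mir-35 to mir-41 lie within 1000 bases of each other in the WBcel235 gene table, and their 7 probes were all members, with 0 to 2 arrays each. mir-250 and mir-61 lie as close and were both silent. mir-357 and mir-358 are also neighbours, with 1 array and 0 arrays. By contrast, mir-42, mir-43 and mir-44 are neighbours whose probes gave a signal on 2, 1 and 9 arrays, the last through the probe that miR-44 shares with miR-45. A gene symbol was matched for 60 of the 64 probes. miR-227, miR-239b, miR-258 and miR-356 had no match to the name as spelled, which does not show that the gene is missing.

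The few signals came from a few arrays. Over 64 probes and 11 arrays there were 704 probe-array pairs, and 43 of them (6.11%) held a signal. Among the other 50 probes it was 377 of 550 (68.5%), a difference set by the rule. Alpha-synuclein replicate 3 held 10 member probes, pdr-1 replicate 3 held 7, cat-1 replicate 2 held 6, and alpha-synuclein replicate 2 and cat-1 replicates 1 and 3 held 5 each. Alpha-synuclein replicate 1 held 4 and pdr-1 replicate 2 held 1. Alpha-synuclein replicate 4 and pdr-1 replicates 1 and 4 held 0. Arrays that registered more of the other 50 probes tended to hold more members. Alpha-synuclein replicate 3, pdr-1 replicate 3 and cat-1 replicate 2 registered 45, 48 and 48 of those. Alpha-synuclein replicate 4 and pdr-1 replicates 1 and 4, with no member, registered 14, 15 and 32. The order was not exact: cat-1 replicate 3 registered 28 of the other probes and 5 members.

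**Figure D2:**
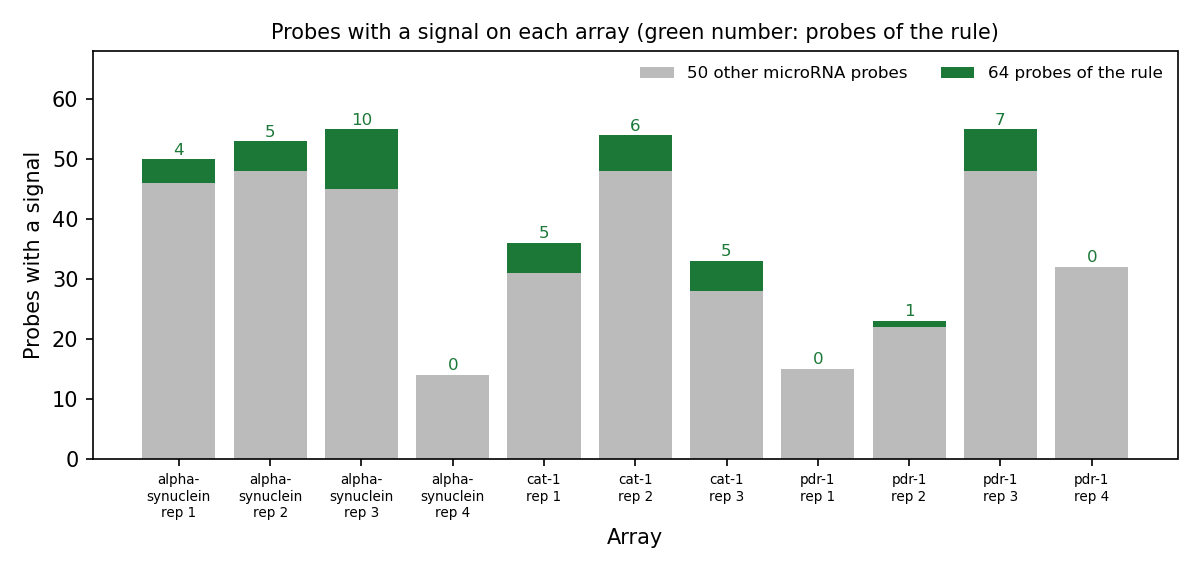
Stacked bars give the number of C. elegans probes with a signal on each of the 11 distinct arrays, with the 50 other probes in grey and the 64 rarely detected probes in green. The green counts run from 0 to 10, and 3 arrays, alpha-synuclein replicate 4 and pdr-1 replicates 1 and 4, hold none.

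By strain, 15 of the 24 probes with any signal were seen on the arrays of 1 strain alone. For the 12 probes with a signal on 1 array it could not be otherwise. The rest were miR-42, on 2 arrays, and miR-254 and miR-266, on 3 each. Each of the other 50 probes, on 4 or more arrays by the rule, was seen on the arrays of more than 1 strain. On alpha-synuclein arrays alone there were 6 (miR-39, miR-40, miR-42, miR-78, miR-243 and miR-246), on cat-1 arrays alone 7 (miR-43, miR-56*, miR-247, miR-254, miR-266, miR-268 and miR-357), and on pdr-1 arrays alone 2 (miR-234 and miR-265). Since N2 was on every array, being seen on the arrays of 1 strain is not the same as being seen in that strain: of these 15, all but miR-39, miR-40, miR-78, miR-246 and miR-265 gave N2 signals in every lit spot. miR-59 and miR-85 were seen in all 3 strains' arrays. No test of a difference between strains in detection was made, since detection chose the members.

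Signals of members were also patchy within an array. Of the 43 probe-array pairs with a signal, 25 rested on 1 of 3 spots, 10 on 2 and 8 (18.6%) on all 3. Among the other probes, all 3 spots were lit in 197 of 377 pairs (52.3%). All 3 spots were lit on at least 1 array for 6 members: miR-35, miR-39, miR-85, miR-254, miR-265 and miR-266. Every lit member spot, 69 in all, carried the scanner flag C, whose meaning is not given in the sources used here.

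By channel, 35 of the 43 pairs held a signal in both channels, 7 in the strain channel alone and 1 in the N2 channel alone. Signals in the strain channel alone made up 16.3% of the members' pairs and 2.39% of the other probes' (9 of 377). In all, 23 members gave a strain signal and 20 an N2 signal. Of the 7 strain-only pairs, 5 lay on alpha-synuclein replicate 3 (miR-40, miR-59, miR-75, miR-78 and miR-246), 1 on cat-1 replicate 3 (miR-231) and 1 on pdr-1 replicate 2 (miR-265). Without alpha-synuclein replicate 3 the count fell from 7 to 2.

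That array stood apart in its channels. The median N2 signal of its C. elegans spots was 108, against 624, 627 and 708 on the other alpha-synuclein arrays. The median strain signal was 2256, against 456, 2087 and 1552. Over all 114 probes it held 10 with a strain signal and no N2 signal, against 0 or 1 on each other array of its strain. The part of this channel difference in the strain-only signals was not tested. The 1 pair with an N2 signal alone was miR-56* on cat-1 replicate 3, in 1 spot, at 1282.

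**Figure D3:**
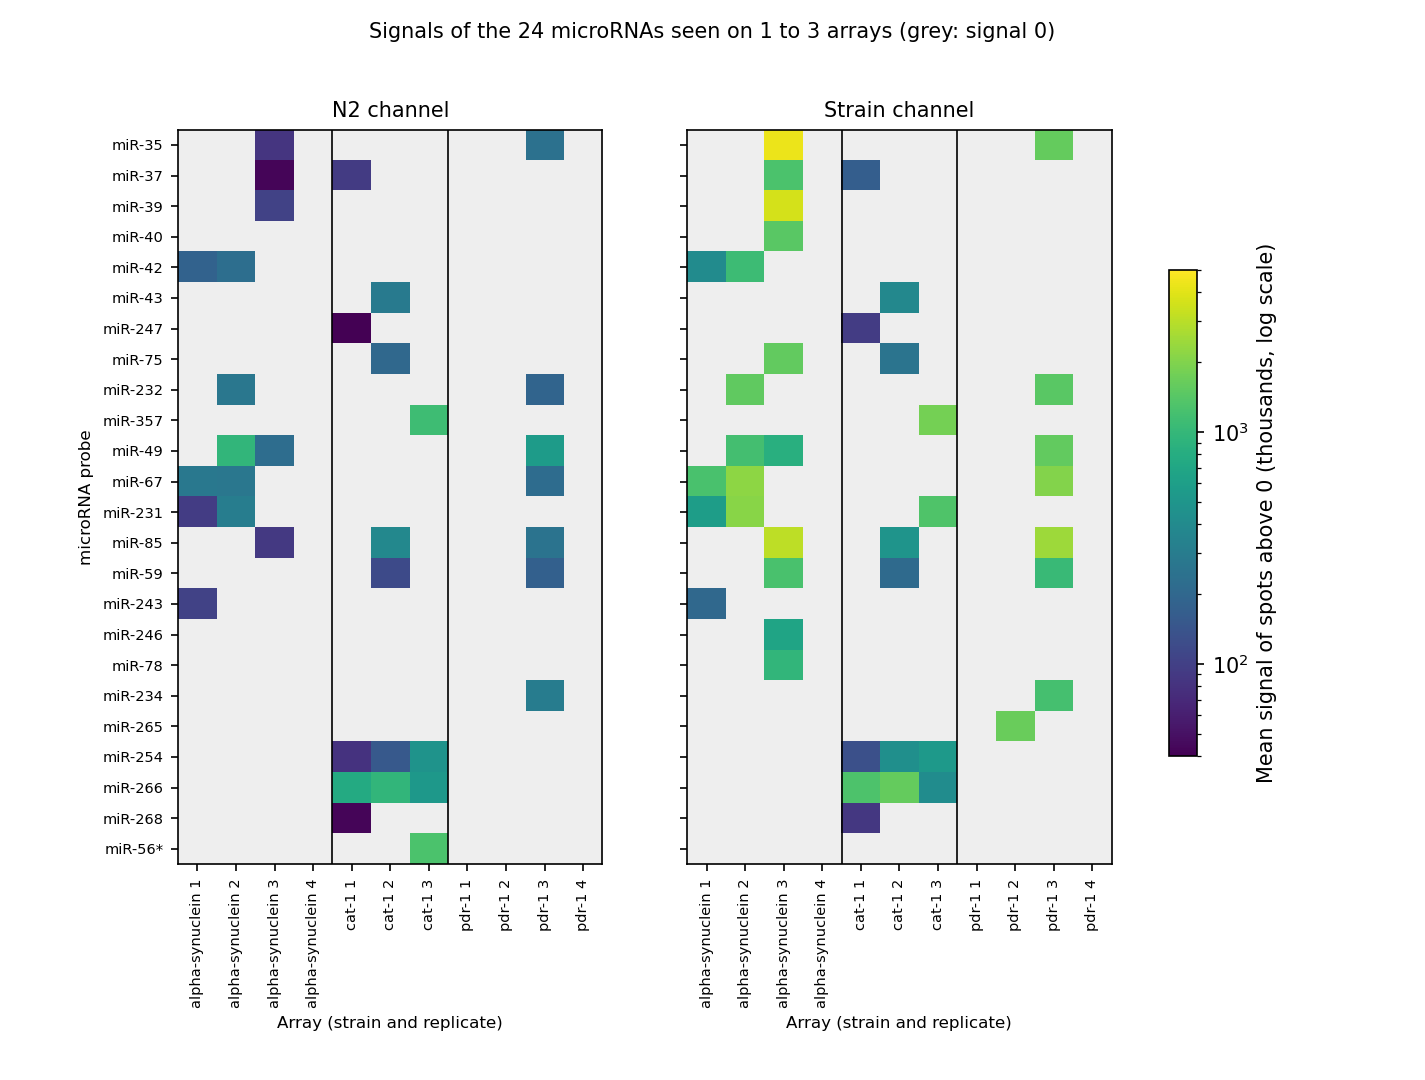
Each row is 1 of the 24 microRNAs seen on 1 to 3 arrays and each column 1 of the 11 arrays, for the N2 channel (left) and the strain channel (right). Colour gives the mean intensity of the spots above 0 (divided by 1000) on a log scale, and grey means a signal of 0. Alpha-synuclein replicate 3 has the most coloured cells, 10 in the strain channel and 5 in the N2 channel.

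Of the 8 probes of the miR-35 family, 5 gave a signal, each on 1 or 2 arrays, and 4 of the 5 did so on alpha-synuclein replicate 3. The first member, miR-35, lit all 3 spots there, with strain signals of 5876, 3278 and 3933 and N2 signals of 101, 107 and 44.9. On pdr-1 replicate 3 it lit 2 spots, with strain signals of 2080 and 1110 and N2 signals of 309 and 180. The strain channel was above the N2 channel in each of these spots, before any normalization of the dyes.

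miR-39 was seen on alpha-synuclein replicate 3 alone, with strain signals of 3742, 2682 and 4512 and N2 signals of 0, 158 and 50.3 in the same spots. miR-40 was seen there in the strain channel alone, at 2102 and 790. miR-37 lit 1 spot there, at 1274 for the strain and 42.7 for N2, and 1 spot on cat-1 replicate 1, at 171 and 93.2. The fifth, miR-42, was dark on that array. It lit 1 spot on alpha-synuclein replicate 1, at 407 for the strain and 184 for N2, and 1 on replicate 2, at 1092 and 227.

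The strain channel of alpha-synuclein replicate 3 was also the brighter for the 7 probes that gave a signal in both channels on all 11 arrays (miR-1, miR-48, miR-63, miR-64, miR-65, miR-80 and miR-82), with a median of 1689 against 114 for N2. To put both channels on 1 scale, the log2 signal was taken minus the log2 median of these 7 in the same channel. On this scale, miR-35 on alpha-synuclein replicate 3 stood at 1.33 in the strain channel and -0.54 in the N2 channel. miR-39 stood at 1.08 and -0.36. On pdr-1 replicate 3, miR-35 stood at -0.16 and -1.15. These scaled values have no replicate check, and they depend on the scaling: after loess, the log2 ratio of strain over N2 was 1.11 for miR-35 and 0.60 for miR-39 on alpha-synuclein replicate 3, and 0.14 for miR-35 on pdr-1 replicate 3. On that pdr-1 array the scaled value was higher in the strain channel for most other members too. miR-59 (-0.68 against -1.58 for N2) and miR-234 (-0.50 against -0.79) were among them, although their loess ratios were -0.13 and -0.69.

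Mismatch controls, whose probes differ from a microRNA's by design, also gave a few signals. On alpha-synuclein replicate 3 the control named for mir-150 lit 1 spot, at 808 for the strain and 226 for N2, so a strain signal of that size there was not limited to microRNA probes. One of the strain spots of miR-40 on that array, at 790, was no higher. The mismatch control of miR-40 itself was dark there and lit 1 spot on alpha-synuclein replicate 4 and 1 on pdr-1 replicate 1.

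**Figure D4:**
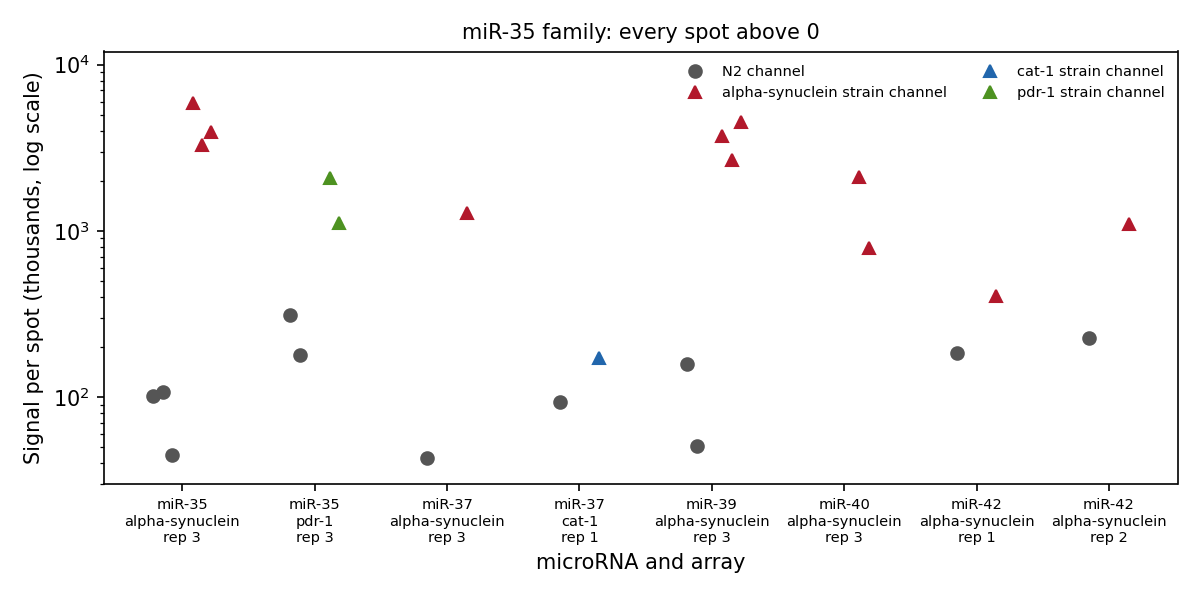
Every spot above 0 of the miR-35 family is plotted by microRNA and array, with intensity (divided by 1000) on a log axis, circles for the N2 channel and triangles for the strain channel. In each lit group the strain spots lie above the N2 spots, and miR-40 has strain spots alone.

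In the other family with members alone, miR-232 lit 1 spot on alpha-synuclein replicate 2, at 1549 for the strain and 274 for N2, and 1 on pdr-1 replicate 3, at 1465 and 188. Its relative miR-357 lit 1 spot on cat-1 replicate 3, at 1830 and 1119. The relatives were thus never seen on the same array. Among members with a more often detected relative, miR-43 of the miR-2 family lit 2 spots on cat-1 replicate 2, at 356 and 408 for the strain and 250 and 326 for N2. miR-247 lit 1 spot on cat-1 replicate 1, at 93.6 and 40.6. miR-75 lit 1 strain spot on alpha-synuclein replicate 3, at 1565 with an N2 signal of 0, and 1 spot on cat-1 replicate 2, at 256 and 203.

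miR-67, miR-231, miR-49 and miR-85 gave a signal on 3 arrays each. miR-67 is a worm microRNA whose sequence is widely used as a negative control in mammalian cells. It lit 1 spot on alpha-synuclein replicate 1 (1254 for the strain, 279 for N2), 2 on replicate 2 (2680 and 1692 against 333 and 212) and 1 on pdr-1 replicate 3 (2028 against 222). miR-231 lit 1 spot on alpha-synuclein replicate 1 (592 against 95.2) and 2 on replicate 2 (1586 and 2647 against 238 and 381). It lit 1 on cat-1 replicate 3 in the strain channel alone (1328). Every lit spot of both was higher in the strain channel before normalization. The 95.2 of miR-231 was the lowest N2 signal of any C. elegans spot on its array.

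miR-49 lit 2 spots on alpha-synuclein replicate 2 (1421 and 925 for the strain, 1257 and 673 for N2), 1 on replicate 3 (837 against 226) and 1 on pdr-1 replicate 3 (1572 against 568). miR-85 lit all 3 spots on alpha-synuclein replicate 3 (4213, 1738 and 3264 for the strain, 151, 0 and 25.9 for N2), 2 on cat-1 replicate 2 (478 and 501 against 388 and 372) and 2 on pdr-1 replicate 3 (3429 and 1471 against 365 and 134). miR-59 followed the arrays of miR-85. Its strain signals were 1447 and 1064 on alpha-synuclein replicate 3 with N2 at 0, 214 against 119 on cat-1 replicate 2, and 1066 and 1056 against 177 and 173 on pdr-1 replicate 3. Before normalization, the channels of both probes were close on the cat-1 array and far apart on the others, as were the medians of all C. elegans spots (750 for the strain and 499 for N2 on cat-1 replicate 2, 2126 and 435 on pdr-1 replicate 3). After loess, miR-59 held -0.66 on cat-1 replicate 2 and -0.13 on pdr-1 replicate 3.

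Single sightings made up the rest of the alpha-synuclein and pdr-1 signals. miR-243, known for being loaded into the RNA interference protein RDE-1, lit 1 spot on alpha-synuclein replicate 1 (206 for the strain, 105 for N2). miR-246, which promotes long life in adult worms, lit 1 spot on alpha-synuclein replicate 3 in the strain channel alone (674), below the 808 of the mir-150 mismatch control on that array. Its own mismatch and reverse controls were dark on all arrays. miR-78 lit 1 there in the strain channel alone (957). miR-234, which acts in neurons, lit 1 spot on pdr-1 replicate 3 (1199 against 304). miR-265 lit all 3 spots on pdr-1 replicate 2, at 1463, 1817 and 1672 for the strain with N2 at 0 in each, and nothing elsewhere.

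miR-266 and miR-254 were seen on each of the 3 distinct cat-1 arrays and on no other. In the authors' column for cat-1 replicate 4, which differs from the repeated scanner values, miR-266 held a ratio and miR-254 did not. miR-266 lit all 3 spots on replicates 1 and 2 and 1 spot on replicate 3. Its strain signals were 1554, 1370 and 961 on replicate 1, 1294, 1705 and 1758 on replicate 2 and 421 on replicate 3. Its N2 signals in the same spots were 928, 757 and 624, then 749, 921 and 1187, then 524. The channels were thus close, and N2 was the higher on replicate 3. miR-254 differed more between arrays. Its strain signals were 155, 119 and 116, then 463, 402 and 474, then 544, against N2 signals of 100, 81.4 and 64.05, then 145, 131 and 188, then 478. miR-268 lit 1 spot on replicate 1, at 87.1 for the strain and 42.5 for N2.

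Some blank spots were lit on the same cat-1 arrays. Of 1059 blank spots per array, 15, 18 and 18 gave a signal on cat-1 replicates 1, 2 and 3, 3 did on pdr-1 replicate 2, and 0 on each other array. They belonged to 5, 6, 6 and 1 named blanks, each lit in 3 spots and in both channels. The same names recurred between these arrays, so the lit blanks were confined to a few positions. Lit blank spots on the cat-1 arrays reached from 134 to 2455, 230 to 2521 and 421 to 2217 in the N2 channel and from 115 to 1951, 169 to 1665 and 244 to 1350 in the strain channel. On pdr-1 replicate 2, where miR-265 was seen, they held 1101 to 1369 for N2 and 1058 to 1527 for the strain. Of the 26 lit member spots on cat-1 arrays, 3 exceeded the highest blank spot of their array in at least 1 channel. The part of the lit blank spots in the cat-1 and miR-265 signals was not tested. On the other lit arrays, where the miR-35 family, miR-67, miR-49 and miR-85 were mostly seen, no blank spot gave a signal.

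Whether a microRNA differs between a model strain and N2 could be asked of members only where both channels held a signal on at least 2 arrays of a strain. The log2 ratio of strain over N2 was normalized by loess within each array, averaged over spots and tested against 0 with limma, across all probes that met the same condition. The rule did not use the ratio or its sign, but the ratio comes from the same signals that chose the members. A spot with a signal of 0 in 1 channel holds no ratio. The tests of members are thus not independent of the choice of members. In the alpha-synuclein strain, limma called 8 of 53 probes (15.1%, 4 higher and 4 lower), 3 of them among the 4 members that could be tested. These 4 are not the members at large. In cat-1, 0 of 38 probes (0%) were called, with 2 at an unadjusted p under 0.05, and neither of the 2 members tested was among them. In pdr-1, 0 of 38 (0%) were called, with 1 at an unadjusted p under 0.05, and no member could be tested.

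In the alpha-synuclein strain, miR-67 was higher than in N2, with ratios of 2.83 and 0.86 on replicates 1 and 2 (mean 1.85 ± 0.48 SE, n = 2, limma adjusted p = 0.00302). miR-231 was higher, with ratios of 2.66 and 0.69 on the same arrays (1.67 ± 0.48 SE, n = 2, limma adjusted p = 0.00682). miR-49 was lower, at -1.65 on replicate 2 and -2.12 on replicate 3 (-1.88 ± 0.48 SE, n = 2, limma adjusted p = 0.00302). For all 3, both arrays lay on the same side of 0. On pdr-1 replicate 3, miR-67 (0.65) and miR-49 (-0.81) lay on those same sides, and miR-231 had no ratio outside the alpha-synuclein arrays. With no dye swap, a probe's dye bias and a strain difference cannot be told apart in these calls. miR-42, of the miR-35 family, held 1.32 and -0.32 on replicates 1 and 2 (0.50 ± 0.48 SE, n = 2, limma adjusted p = 0.541), 1 array on each side. The median log2 ratio was 1.09 over these 4 and 0.16 over all 53 tested, given as a description.

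These calls rest on little. The SE takes 1 SD of 0.68 for all probes and strains, while the residual SD between alpha-synuclein arrays was 0.82. Without replicate 3, which did not measure miR-67 or miR-231, neither was called (adjusted p = 0.125 for each), and miR-49 had 1 array left. On replicate 3, the 1 lit spot of miR-49 held 837 for the strain and 226 for N2. The mir-150 mismatch control on that array held 808 and 226. Of the 2 ratios behind the miR-49 call, 1 thus came from a spot near a mismatch control's level. With scale normalization between arrays miR-67 fell to 0.78 (adjusted p = 0.312) and miR-231 to 0.69 (adjusted p = 0.440). With no normalization miR-49 turned to 1.10 (adjusted p = 0.371), since all of its raw strain signals lay above the N2 signals. In the authors' deposited table, which does not follow the scanner file on alpha-synuclein replicate 2, the 2 spots of miR-49 on that array held log2 ratios of -1.51 and 0.68 and those of miR-231 held 2.33 and 0.09.

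In the cat-1 strain, miR-254 held -0.23, 0.41 and -0.04 on replicates 1 to 3 (0.05 ± 0.40 SE, n = 3, limma adjusted p = 0.968). miR-266 held 0.01, -0.03 and -0.61 (-0.21 ± 0.40 SE, n = 3, limma adjusted p = 0.968). For both, the arrays lay on both sides of 0, and no difference from N2 was detectable with 3 arrays. The same held with the strain fitted alone, without the shared SD (limma adjusted p = 0.92 for miR-254 and 0.85 for miR-266).

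Ratios on a single array have no replicate check and are given as values. On pdr-1 replicate 3 they were 0.85 for miR-85, 0.65 for miR-67, 0.24 for miR-232, 0.14 for miR-35, -0.13 for miR-59, -0.69 for miR-234 and -0.81 for miR-49. pdr-1 replicates 1 and 4 opposed each other (r = -0.593 over 14 probes), so the direction of these arrays is not settled. Replicate 3, which gave the values above, had r = 0.420 with replicate 4, 0.191 with replicate 2 and -0.022 with replicate 1. The direction of replicate 3 itself was not tested, and with its sign turned each of these values would change sign. On alpha-synuclein arrays the single values were 1.29 for miR-85, 1.11 for miR-35, 0.60 for miR-39 and 0.28 for miR-37 on replicate 3, 0.17 for miR-232 on replicate 2 and 1.39 for miR-243 on replicate 1. After loess, miR-35, miR-37 and miR-39 thus lay at 0.28 to 1.11 on replicate 3, although their raw strain signals exceeded N2 by far more. Spots there with an N2 signal of 0 hold no ratio: those of miR-40, and 1 each of miR-39 and miR-85. On cat-1 arrays they ran from -0.87 for miR-75 to 0.64 for miR-357.

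**Figure D5:**
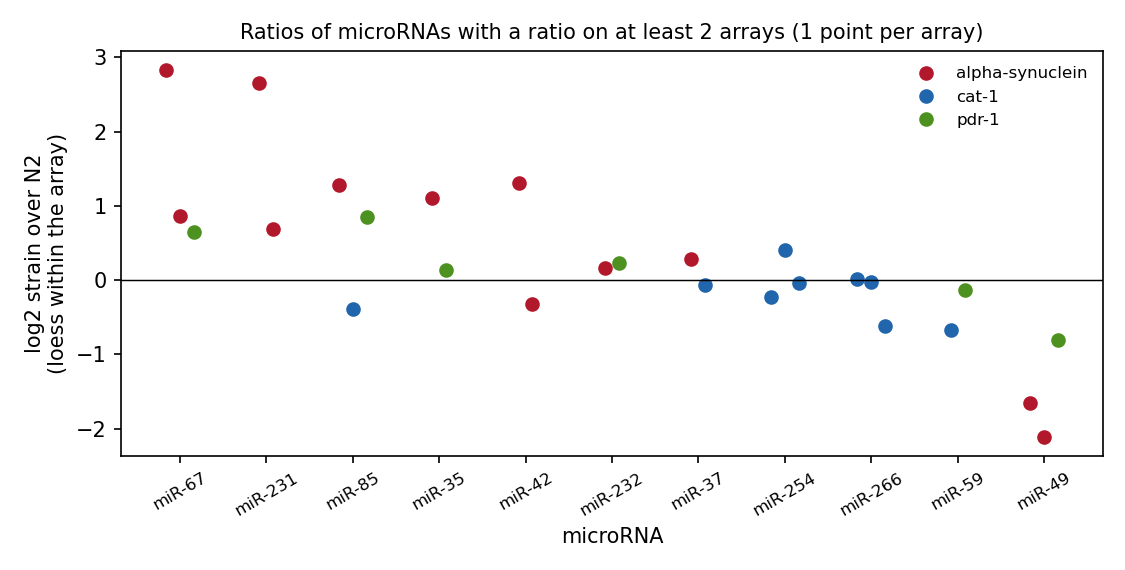
Points give the loess-normalized log2 ratio of strain over N2 (vertical axis), 1 point per array, for the 11 rarely detected microRNAs with a ratio on at least 2 arrays. Colours mark the strain. miR-67 and miR-231 lie above 0 on every array shown, miR-49 below 0 on every array shown, and miR-254 and miR-266 lie around 0.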

How the data were processed

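Members and lists were chosen with earlier results of these data known. The labels' protocols give small RNA extraction with the mirVana kit and NCode labelling. The deposited scanner files hold, per the file headers, a signal intensity and a flag letter for each channel of 4608 spots per array, 342 of them C. elegans spots (114 probes, 3 spots each). No source used here gives the background step or the flags' meaning, so an intensity above 0 was taken as a signal. The value table that the authors deposited gives log2 ratios of the second over the first channel, by comparison with the scanner values. Its centring was a constant shift in 10 columns, with medians of 0.07, -0.06 and 0.40 for alpha-synuclein replicates 1, 3 and 4, -0.03, 0.08 and 0.03 for cat-1 replicates 1 to 3 and 0.20, 0.05, 0.19 and -0.03 for pdr-1. Centring remains unknown for alpha-synuclein replicate 2 (median 0.27, r = 0.721 with the scanner values) and cat-1 replicate 4 (median 0.13, r = 0.597). The table has 0 further columns of per-sample values.

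Every member is named. Families were taken from the literature, with no sequence table used here, and the groups of miR-49, of miR-50 and of miR-266 with miR-72 were added after seeing the data. Ratios were computed in R 4.3.3 with limma 3.58.1: loess on C. elegans spots (span 0.3, 4 iterations), spots flagged S left out, spots of a probe averaged, then lmFit and eBayes with 1 mean per strain, two-sided, Benjamini-Hochberg adjustment per comparison at 0.05. A probe needed a ratio on at least 2 arrays of a strain. All probes shared 1 SD (infinite prior degrees of freedom). The steps were tested on simulated data. The number of arrays limits the precision. Same-numbered arrays of different strains did not deviate together (median r = -0.109 over 10 pairs, against 0.079 over 30 differently numbered pairs), so the numbers were not used to pair arrays. Alternatives concerned the signal threshold, the limit of arrays, the channel, normalization, filters, flags, an offset, the fit and each array left out. Leaving out arrays with the members held fixed, and turning the sign of pdr-1 arrays, were added after seeing the data. Gene symbols and neighbours came from the WBcel235 RefSeq gene table, with no coordinates printed.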

Additional observations from a re-analysis of the deposited data

Results flagged for a closer look

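Arrays of 4 replicates were searched for 1 that lay far from the others of its strain, a criterion that chance meets in about 1 of 20 groups. It was met in 10 of 18 groups, several of which hold mostly zeros, where a single array with a signal meets it.

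pdr-1 replicate 3 held 7 rarely detected microRNAs, against at most 1 on the other pdr-1 arrays. It held 7 in the N2 channel (0 on the others) and 7 in the strain channel (at most 1 on the others). pdr-1 replicate 2 held 1 in the strain channel alone, miR-265, with 0 on the others, and 3 lit blank spots, with 0 on the others. pdr-1 replicate 4 held 0 C. elegans probes with a strain signal alone, where the others held 1 each.

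Alpha-synuclein replicate 3 held 5 rarely detected microRNAs in the strain channel alone, with 0 on the others, and 10 C. elegans probes of that kind, with at most 1 on the others. Its median N2 signal (intensity divided by 1000) was 108, against 624 for the nearest array. Alpha-synuclein replicate 4 registered 14 C. elegans probes, against 50 for the nearest. The part of these array differences in the detection of single microRNAs was not tested.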

How the results depend on the processing

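The number of rarely detected probes, of silent ones and of those with a strain or N2 signal stayed within 1.5 times the reported counts under every alternative run for them. Leaving out each array in turn gave 64 to 68 probes and 40 to 44 silent ones, with 22 to 27 holding a strain signal and 18 to 24 an N2 signal. With the members held fixed, signals in the strain channel alone fell from 7 to 2 without alpha-synuclein replicate 3, and to 2 without pdr-1 replicate 3 as well. The alpha-synuclein calls were 20 with no normalization (all higher), 2 with scale normalization, 3 with the strain fitted alone and 1 to 8 with 1 array left out (2 without replicate 1, 2 without replicate 2, 1 without replicate 3). When a signal on 4 or more arrays was required, which leaves out every member by definition, 5 of 50 probes were called. That setting also asked for a ratio on 1 array instead of 2. The replicate block gave 3 calls among 32 probes and could test no member. cat-1 calls were 2 with scale normalization and 4 with the strain fitted alone, none of them members, and pdr-1 calls were 1 with scale normalization. With 1 array left out both stayed at 0. For single members, miR-49 turned to 1.10 and miR-266 to 0.39 with no normalization, and miR-254 to -0.13 without cat-1 replicate 2 (its range with 1 array left out was -0.13 to 0.18). miR-42 was called in the authors' deposited table (1.77, limma adjusted p = 0.0253), while miR-49 was not (-1.59, adjusted p = 0.0857). miR-67 was not called with no normalization (2.59, adjusted p = 0.0527), nor miR-231 with the strain fitted alone (adjusted p = 0.0609). The cause of these changes was not tested, beyond the smaller number of arrays or probes where some were left out. A slide or scan block was not run, since the files give neither. Detection is limited by the lowest lit signal, which differed between arrays and channels.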

Other observations

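The authors' deposited table holds a column for cat-1 replicate 4 that differs from the repeated scanner file (r = 0.597). In that column 33 microRNA probes held a ratio, and 1 of them was a rarely detected one: miR-266, with authors' log2 ratios of 0.52 and 0.31 in 2 spots.

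Mismatch controls gave a signal in 4 spots. The one named for mir-150 held 226 for N2 and 808 for the strain (intensity divided by 1000) on alpha-synuclein replicate 3, and one named for mir-27a held 456 and 602 on cat-1 replicate 2, arrays that held 10 and 6 rarely detected microRNAs. The mismatch control of miR-40 held 524 for N2 and 389 for the strain on alpha-synuclein replicate 4, and 528 and 1287 on pdr-1 replicate 1. No rarely detected microRNA gave a signal on either of the last arrays.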
